A study of Mus musculus with 14 samples.

Results

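Red blood cells hold their shape through a protein meshwork fixed to the inner face of the membrane, and carry on the outer face the proteins whose human counterparts define blood groups. The 9 genes described here encode parts of that structure in the mouse: Sptb, Ank1 and Epb42 of the membrane skeleton, the anion exchanger Slc4a1, the Rh complex members Rhag and Rhd, the Rh-associated adhesion protein Icam4, and the blood group proteins Kel and Ermap. They came as a list of symbols with no threshold, chosen by what they encode and by their levels in these same libraries, whose earlier results were known. All 9 were found among the 47729 genes of the count table. Since the group differences were known when the genes were listed, their levels are given as a description.

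Cells were sorted from the synovium, the lining tissue of the joint, of mouse knees. All mice were C57BL6 and 16 weeks old, and joints were collected 10 days after they had been injected. Antigen-induced arthritis (AIA) was raised by immunizing mice with methylated bovine serum albumin in complete Freund's adjuvant and later injecting that albumin into the joint, while non-immunized mice (NI) received phosphate buffered saline at each step. Every sorted population was TER119-CD31-CD45-CD51+, so red cell, endothelial and leukocyte antigens were gated out. Libraries 1 to 4 are CD200+CD105- cells of NI mice, libraries 5 to 9 are CD200+CD105- cells of AIA mice, and libraries 10 to 14 are CD200-CD105+ cells of AIA mice. Each library came from 200 to 500 cells. CD105+ cells of NI mice are not analysed here. The labels do not tell whether samples came from separate or pooled animals, so the spread between samples may in part be technical.

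In the red cell, beta spectrin (Sptb) is a main strand of the meshwork. Ankyrin (Ank1) ties beta spectrin to the anion exchanger band 3 (Slc4a1), which swaps chloride for bicarbonate, and protein 4.2 (Epb42) steadies that link. The Rh-associated glycoprotein (Rhag) is required for the Rh protein (Rhd) to reach the surface, and Icam4 (the LW antigen) is an adhesion molecule found with them. Kel is a membrane protease joined to the Xk protein, and Ermap, which carries the Scianna antigens, belongs to the butyrophilin-like family. These genes are switched on in nucleated erythroid precursors of the bone marrow, since the mature red cell makes no RNA.

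Total counts ranged from 12177437 to 40331071 per library, of which counts on mouse genes made up 2919666 to 18553803. The remainder were ERCC spike-ins, synthetic RNAs added to the lysed cells, which took 20.3% to 55.6% of counts in CD105+ libraries, 47.5% to 85.4% in NI CD200+ libraries and 43.5% to 92.0% in AIA CD200+ libraries. Libraries 2, 5 and 6 had over 80% spike-ins. Set against the labels, Cd200 stood at 590.2 ± 177 CPM (SD, n = 4) in NI CD200+ cells, 418 ± 98.4 (n = 5) in AIA CD200+ cells and 2.29 ± 5.12 (n = 5) in CD105+ cells, so it followed the sort. Eng, which encodes CD105, stood at 5.27 ± 5.69, 0.502 ± 0.582 and 6.6 ± 4.85 CPM in the same order, was at 0 in 1 of the CD105+ libraries, and overlapped between CD105+ and NI CD200+ cells. The stromal and osteoblast markers were not alike in CD105+ cells. Runx2, a regulator of bone-forming cells, had 0 counts in all 5 libraries, and Alpl, the bone alkaline phosphatase, had 13 counts, all in 1 of them. The matrix genes Col3a1, Dcn and Col1a2 stood at 1164 ± 692, 761 ± 410.1 and 687 ± 403 CPM, Prg4, the lubricin gene of joint lining, at 1987 ± 2225 CPM, and the receptor gene Pdgfra at 26.5 ± 14.4 CPM.

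Promoter sequence was available in the RefSeq table (GRCm38.p6) for 7 of the 9 members, and was read for letters that erythroid factors bind. Each window of 300 bases holds 250 bases before and 50 after an annotated start. The first motif searched was GATAA, the core bound by the factor GATA1, which reads TTATC on the opposite strand. The second was the core bound by the factor KLF1, CACCC, whose reverse complement is GGGTG. Both strands were searched, and matches of the 2 motifs that overlapped at 1 base would have counted for each. GATAA was found in 6 of the 7 windows and in 25.4% of all 32817 windows. CACCC was found in 6 of the 7 and in 57.5% of all windows, and both together in 5 of the 7 and in 12.6% of all windows. A match is a stretch of letters only. The sequences upstream of the first exon base are shown for Rhd, the most abundant member, for Rhag, its partner, and for the 2 blood group genes Kel and Ermap, with matches in capitals.
Rhd (chr4:134864286-134864535, plus strand): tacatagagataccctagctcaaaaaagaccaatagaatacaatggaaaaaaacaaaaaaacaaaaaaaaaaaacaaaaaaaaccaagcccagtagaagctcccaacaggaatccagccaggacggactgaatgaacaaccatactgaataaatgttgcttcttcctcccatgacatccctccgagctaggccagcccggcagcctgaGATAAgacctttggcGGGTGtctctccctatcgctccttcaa
Rhag (chr17:40810899-40811125, plus strand): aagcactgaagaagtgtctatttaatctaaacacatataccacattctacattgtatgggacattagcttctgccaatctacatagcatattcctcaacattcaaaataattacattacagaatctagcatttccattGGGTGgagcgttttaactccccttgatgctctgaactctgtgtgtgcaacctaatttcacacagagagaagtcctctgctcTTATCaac
Kel (chr6:41704340-41704575, minus strand): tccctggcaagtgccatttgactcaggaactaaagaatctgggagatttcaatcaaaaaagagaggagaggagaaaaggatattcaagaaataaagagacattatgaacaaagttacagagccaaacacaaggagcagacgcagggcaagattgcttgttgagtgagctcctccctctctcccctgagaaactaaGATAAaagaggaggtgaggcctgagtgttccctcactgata
Ermap (chr4:119190012-119190245, minus strand): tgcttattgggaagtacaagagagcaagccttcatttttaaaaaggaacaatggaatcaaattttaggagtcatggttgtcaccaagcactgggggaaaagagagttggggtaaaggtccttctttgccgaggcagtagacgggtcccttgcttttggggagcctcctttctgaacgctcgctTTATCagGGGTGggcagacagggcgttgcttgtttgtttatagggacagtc
In the printed stretches Rhd, Rhag and Ermap each hold 1 GATAA and 1 CACCC match, and Kel holds 1 GATAA match. The window of Sptb had no GATAA match and that of Epb42 no CACCC match.

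Levels below are CPM, the usual depth-scaled read counts, here relative to mouse gene counts only and with TMM factors that adjust for composition. Where a group had no count of a gene, 3 counts summed over its libraries served as the floor, 0.0538 CPM in NI CD200+, 0.0575 in AIA CD200+ and 0.0477 in CD105+ cells. Floors cover counting error only, since reads carry no molecular identifiers. In these bulk samples, fewer cells of a type and less RNA per cell cannot be told apart.

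Of the Rh complex genes, Rhd had the highest CPM of all members in each of the 5 CD105+ libraries. Rhd (ENSMUSG00000028825) lies on the plus strand at chr4:134864536-134896172 and Rhag (ENSMUSG00000023926) on the plus strand at chr17:40811126-40840754, in GRCm38 as are all positions here. Rhd stood at 1922, 691, 1561, 1333 and 868 CPM in CD105+ libraries 10 to 14 (1275 ± 503, SD, n = 5). It had 0 counts in all 5 AIA CD200+ libraries and in NI libraries 2 to 4, and stood at 10.8 CPM in NI library 1. No CD200+ library came near the lowest CD105+ library, and against AIA CD200+ cells Rhd was at least 22185-fold higher. Rhag, its obligate partner, stood at 865, 294, 870.1, 396 and 353 CPM in libraries 10 to 14 (556 ± 287). It had 0 counts in the 4 NI CD200+ libraries and 12 counts, all in library 7, in AIA CD200+ cells. The log2 difference between CD105+ and AIA CD200+ cells was 11.26 (SE 1.33), and the ratio of means was 3080.4. Against the floor of the AIA libraries without library 7, Rhag was at least 7205-fold higher, a value that is no bound for the group. Libraries 10 and 12 were highest for both genes.

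Icam4 (ENSMUSG00000001014, chr9:21029373-21030595, plus strand) showed the same separation at a lower level, 279, 112, 104, 274 and 182 CPM in libraries 10 to 14 (190.2 ± 84.6). Its only counts outside CD105+ cells were 121 in NI library 1, at 7.0 CPM. The groups did not overlap, and Icam4 was at least 3309-fold higher in CD105+ than in AIA CD200+ cells. All 1110 exon bases of Icam4 lie under exons of the antisense gene Gm47079, which has no row of its own in the table analysed here. Whether reads were counted by strand is not given in the labels, so reads of the 2 genes cannot be told apart.

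Among blood group proteins, Ermap (ENSMUSG00000028644) lies at chr4:119175457-119190011 and Kel (ENSMUSG00000029866) at chr6:41686330-41704339, both on the minus strand. Ermap stood at 201, 500.4, 347, 555 and 676 CPM in libraries 10 to 14 (456 ± 185). Outside CD105+ cells it was found in library 1 at 1.21, library 3 at 4.03 and library 7 at 4.21 CPM, and was at 0 in the other 6. The log2 difference from AIA CD200+ to CD105+ cells was 8.93 (SE 1.84), which rests on library 7 for its lower level. The ratio of means was 541. Against the floor of the AIA libraries without library 7, Ermap was at least 5910.3-fold higher, a value that is no bound for the group. Kel stood at 107, 198, 350.3, 194 and 194 CPM in libraries 10 to 14 (209 ± 88.0) and was at least 3630.3-fold higher than in AIA CD200+ cells, which had no count. NI library 1 held 831 Kel counts, 48.1 CPM, still below the lowest CD105+ library. Unlike Rhd and Rhag, Ermap was lowest in library 10.

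Slc4a1 (ENSMUSG00000006574, chr11:102348824-102366203) and Epb42 (ENSMUSG00000023216, chr2:121017891-121037072) are both on the minus strand. Slc4a1, the band 3 gene, stood at 83.4, 200.1, 102, 312 and 359.7 CPM in libraries 10 to 14 (211 ± 123). It had no count in AIA CD200+ cells, so it was at least 3679-fold higher, and in NI cells it had counts only in library 1, at 8.68 CPM. Its spread was the widest of the 9 members in CD105+ cells, with a coefficient of variation of 58.3% and 4.31-fold from lowest to highest library. Epb42, which binds band 3 at the inner face, stood at 109.9, 64.4, 132, 67.3 and 153 CPM (105 ± 38.9). It had no count in AIA CD200+ cells (at least 1829.7-fold higher) and stood at 28.5 CPM in NI library 1. The 2 partners did not keep a fixed proportion. Per kilobase of exon, the ratio of Slc4a1 to Epb42 was 0.841 in library 10 and 0.856 in library 12, against 3.44, 5.14 and 2.61 in libraries 11, 13 and 14.

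The spectrin and ankyrin genes of the skeleton went separate ways. Sptb (ENSMUSG00000021061) lies on the minus strand at chr12:76580488-76710547 and Ank1 (ENSMUSG00000031543) on the plus strand at chr8:22974844-23150497. Sptb stood at 69.9, 175, 67.5, 201 and 228 CPM in libraries 10 to 14 (148 ± 75.0), against 4.51 CPM in NI library 1, 6.46 CPM in AIA library 7 and 0 in the other 7 CD200+ libraries. Its log2 difference between CD105+ and AIA CD200+ cells was 6.76 (SE 2.07), and the ratio of means was 115. Against the floor of the AIA libraries without library 7, Sptb was at least 1922-fold higher, a value that is no bound for the group. Ank1 was found in all 14 libraries. It stood at 8.21, 11.2, 31.3 and 11.3 CPM in NI CD200+ libraries, at 49.1, 50.6, 11.0, 20.9 and 28.5 CPM in AIA CD200+ libraries, and at 43.3, 25.3, 27.8, 31.2 and 19.0 CPM in CD105+ libraries. The 3 groups overlapped, and the log2 difference between CD105+ and AIA CD200+ cells was -0.13 (SE 0.59). It was not negative in 7 of 24 alternative settings, among them spike-in scaling at 1.52 and no filter at 0.0. The highest values, 49.1 and 50.6 CPM, came from AIA libraries 5 and 6, which had the highest spike-in shares. Ank1 shares 862 exon bases with the antisense gene Gm15816, which had 465 counts over all libraries against 3929 for Ank1.

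**Figure D1:**
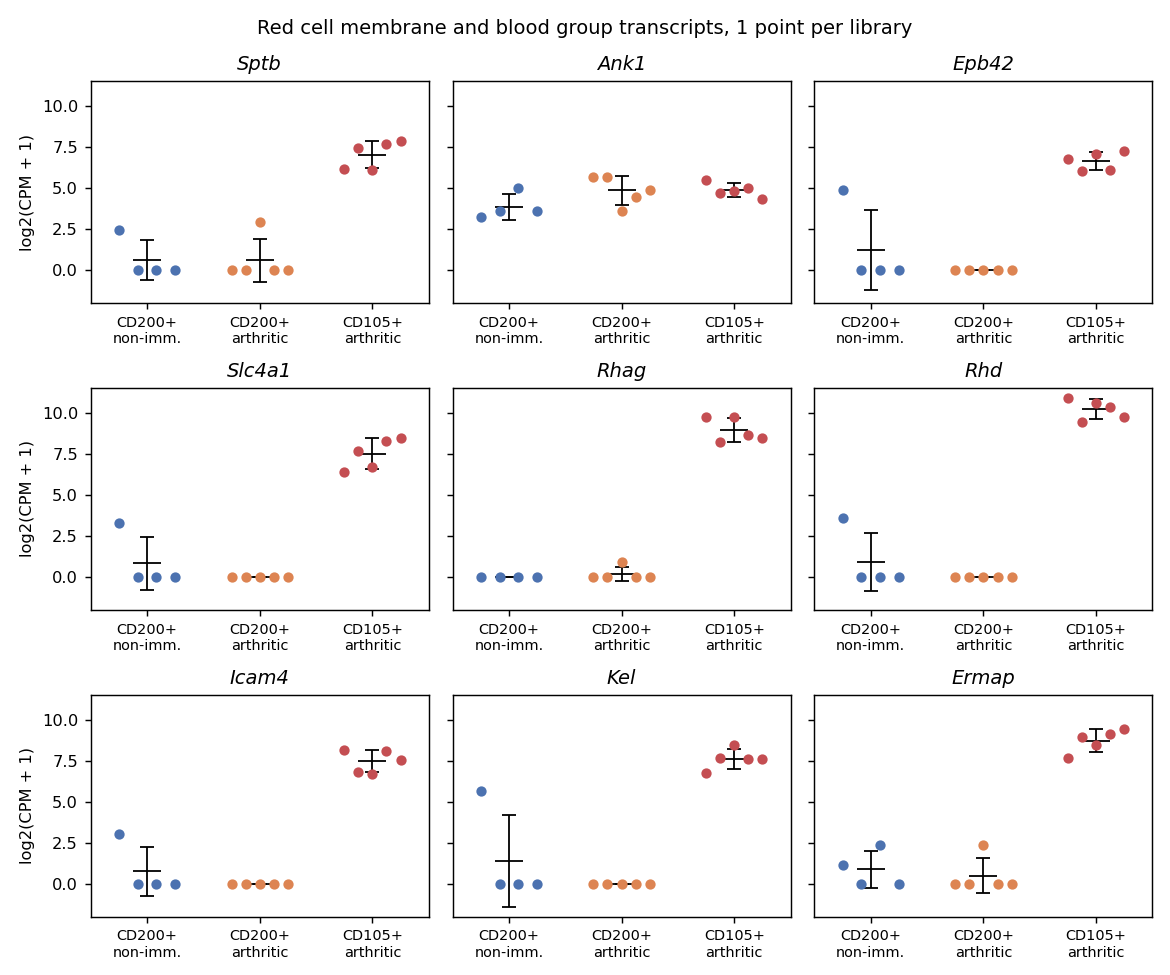
Level of each member by library, as log2(CPM + 1) on the vertical axis, for the 4 NI CD200+, 5 AIA CD200+ and 5 CD105+ libraries. Each point is a library, and bars give the mean and SD of the plotted values. For 8 members every CD105+ library lies above every CD200+ library, and for Ank1 the 3 groups overlap.

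In the comparison of CD105+ with AIA CD200+ cells, 8 of the 9 members passed the threshold of edgeR's quasi-likelihood test as higher (adjusted p under 0.05 over all 15015 genes tested), and Ank1 did not. Of all genes tested, 4.79% were called higher there. For the same 8 members the 2 groups did not overlap, as held for 10.4% of all genes in that direction and 6.33% in the other. The members' median log2 change was 13.33, or 11.26 with genes at 0 set to their bound, beside -0.05 over all genes. All 9 passed the filter on low counts, 8 of them through the group in which they were high, and the list was chosen with this contrast known, so nothing is read from these counts. Sptb, nearest to the threshold, was the member that no longer passed in 14 of 24 alternative settings.

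The comparison of CD105+ AIA cells with NI CD200+ cells shares its CD105+ libraries with the one above. Its groups differ both in sorted phenotype and in arthritis, which cannot be told apart here. Here 4 members, Rhag, Rhd, Icam4 and Ermap, passed as higher, beside 5.57% of all genes called higher and 7.63% called lower. Sptb, Slc4a1, Kel, Epb42 and Ank1 did not pass, with log2 differences of 6.98 (SE 2.31), 6.57 (SE 1.96), 4.11 (SE 2.04), 3.87 (SE 2.01) and 0.92 (SE 0.64). The groups did not overlap for 8 members, against 12.5% of all genes in that direction. For 6 members the NI level came from library 1 alone. Without it 8 members passed as higher, beside 653 of all genes. Leaving it out puts at 0 the NI level of Sptb, Epb42, Slc4a1, Rhd, Icam4 and Kel, so nothing is read from that rise. Against the floor of the NI libraries left, these 6 were at least 1350.2-fold (Epb42) to 16372-fold (Rhd) higher in CD105+ cells. Those values are no bounds for the group, since with all libraries the ratios of means were 14.7 (Epb42) and 471 (Rhd).

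Between AIA and NI CD200+ cells, which differ in arthritis within 1 sorted phenotype, 0 of the 9 members passed in edgeR, as did 0.0% of all genes (915 genes were at an unadjusted p under 0.05, and DESeq2 called 303 and limma voom 4). The groups overlapped for all 9 members (1.11% of all genes lay wholly higher and 1.18% wholly lower in AIA). At an unadjusted p under 0.05 there were 6 members, and DESeq2 called 4 (Epb42, Slc4a1, Rhd and Kel) as lower in arthritis. All NI counts of those 4 came from library 1, and without it each was at 0 in both groups. Limma voom with sample weights called 0 members. Ank1, the member present in every library, stood at 32.0 ± 17.4 CPM (n = 5) in AIA against 15.5 ± 10.6 (n = 4) in NI cells, a log2 difference of 1.05 (SE 0.64). That difference did not pass, and the groups overlapped.

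Library 1 stood apart among NI CD200+ libraries. It had counts for 8 of the 9 members, all but Rhag, while libraries 2, 3 and 4 had counts for 1, 2 and 1. Its make-up also differed from that of CD105+ cells. Kel made up 44.8% of its summed CPM per kilobase of the 9 members and Epb42 13.6%, against at most 7.99% and 2.39% in any CD105+ library. Rhd made up 17.5% there, against 46.2% to 61.8% in CD105+ libraries, and Rhag, 11.1% to 22% in those, had no count. Another red cell membrane transcript, Tspo2, stood at 8.68 CPM in it.

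Haemoglobin transcripts, the main product of erythroid cells, did not track the members in CD200+ libraries. They made up 0.977% of gene counts in NI library 4 and 1.07% in AIA library 9, at 175389 and 164801 counts. Neither library had a single count of the 8 members other than Ank1. NI library 1, with less haemoglobin at 0.429% and 78035 counts, held 1881 counts of those 8 members. Among CD200+ libraries, those with the most haemoglobin RNA were therefore not those with member RNA. In CD105+ libraries haemoglobin made up 18.3%, 5.47%, 2.71%, 6.54% and 7.99% of gene counts in libraries 10 to 14, while the 8 members summed to 3637, 2235, 3533, 3332 and 3013 CPM. Haemoglobin counts per count of the 8 members ran from 6.96 in library 12 to 66.7 in library 10, so the 2 did not keep a fixed proportion in CD105+ cells either.

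**Figure D2:**
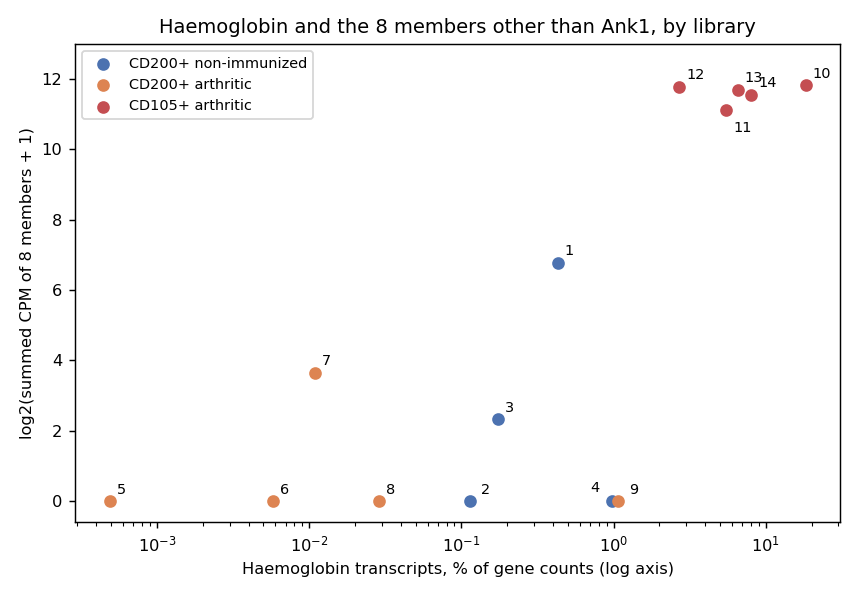
Summed level of the 8 members other than Ank1, as log2(CPM + 1) on the vertical axis, against haemoglobin transcripts as a percentage of gene counts on a logarithmic horizontal axis. Each point is a library, labelled by its number. Libraries 4 and 9 have about 1% haemoglobin and no count of the 8 members, and library 1 has members at 109 CPM with 0.429% haemoglobin.

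Set per kilobase of exon, so that genes of different length can be compared, the mean levels in CD105+ cells fell in the order Rhd (799.9 ± 315 CPM per kilobase), Rhag (238 ± 123), Icam4 (171 ± 76.3), Ermap (86.1 ± 35.0), Kel (75.2 ± 31.7), Slc4a1 (43.2 ± 25.2), Epb42 (19.4 ± 7.19), Sptb (12.2 ± 6.17) and Ank1 (2.17 ± 0.666). By mean level the Rh complex genes thus came first and the skeleton genes last. Rhd lay above Rhag in 5 of 5 libraries with no overlap of their ranges, and so did Sptb above Ank1. All other neighbours in the order overlapped. Rhag lay above Icam4, Ermap above Kel, Slc4a1 above Epb42 and Epb42 above Sptb in only 3 of 5 libraries each, so their order is not settled beyond the spread.

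Within CD105+ cells some of the members split by library. Libraries 10 and 12 had the highest Rhd and Rhag and the lowest Sptb, Slc4a1 and Ermap of the 5. The remaining members did not follow this split. Icam4 was highest in library 10 (279 CPM) and lowest in library 12 (104 CPM), and Kel the reverse (107 and 350.3 CPM). Epb42 was highest in library 14 (153 CPM), and Ank1 was highest in library 10 (43.3 CPM) and lowest in library 14 (19.0 CPM). In the shares that follow, Rhd took 46.2% to 61.8% of the sum, so a high Rhd level lowers the other shares. Slc4a1 made up 0.875% and 1.23% of the members' summed CPM per kilobase in libraries 10 and 12, against 4.57%, 4.19% and 6.24% in libraries 11, 13 and 14. Ermap moved the same way, at 1.94% and 3.88% against 10.6%, 6.88% and 10.8%. Beside this, spike-ins took 51.0% and 55.6% of counts in libraries 10 and 12 against 24.0%, 42.1% and 20.3% in libraries 11, 13 and 14, and gene counts were lowest in libraries 10 and 12 of the 5. Their part in the split was not tested.

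**Figure D3:**
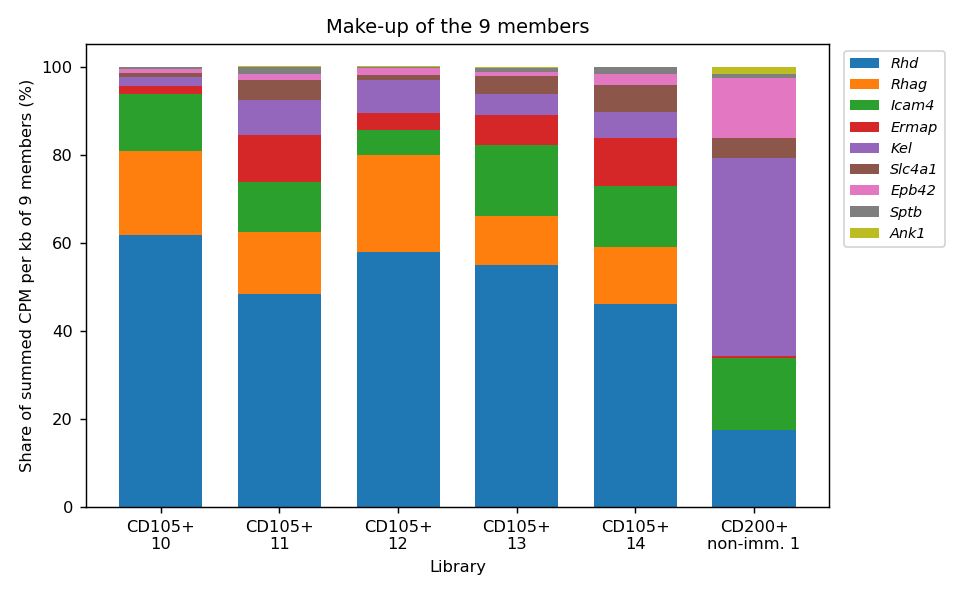
Make-up of the 9 members in each CD105+ library and in NI CD200+ library 1, as the percentage each member takes of their summed CPM per kilobase of exon. Rhd takes 46.2% to 61.8% in CD105+ libraries and 17.5% in library 1, where Kel takes 44.8%.

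Pairs that join in 1 complex were also set side by side in CD105+ libraries, as ratios of CPM per kilobase. Rhd stood 3.26, 3.45, 2.63, 4.93 and 3.61 times as high as Rhag in libraries 10 to 14 (3.58 ± 0.844), a narrow range beside the spread of either gene. Kel to Xk, its membrane partner, ranged from 5.91 to 10.8 (8.30 ± 1.86). Slc4a1 to Ank1, which ties band 3 to the skeleton, was far more variable, from 5.33 in library 10 to 52.4 in library 14 (23.5 ± 18.5).

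Other genes of the red cell membrane were taken from lists chosen with earlier results of these data known, and are counted over all genes tested. Of 8 other skeleton genes, 3 passed as higher in CD105+ than in AIA CD200+ cells and 0 as lower (background 4.79% and 6.48%), with a median log2 change of 5.40 beside -0.05 over all genes. Among them were Mpp1, a scaffold protein, at 123 ± 31.4 against 31.5 ± 8.89 CPM (edgeR adjusted p = 0.00736), and Epb41, the protein 4.1 gene, at 54.0 ± 14.6 against 7.01 ± 5.82 (edgeR adjusted p = 0.0414). Epb41 stood at 32.9 ± 5.87 CPM in NI CD200+ cells, and its difference from CD105+ cells there did not pass (edgeR adjusted p = 0.631). Stom, Add2 and Tmod1, which did not pass, stood at 139 ± 95.2, 90.0 ± 59.8 and 36.1 ± 11.0 CPM in CD105+ cells against 3.03 ± 5.62, 1.27 ± 2.76 and 0.481 ± 1.08. Add1, singled out after its values were seen as the one of the 8 with a negative estimate, stood at 81.6 ± 91.1 against 89.6 ± 39.5 CPM, and its log2 change of -0.13 became 1.76 with spike-in scaling. With that scaling Mpp1 and Epb41 did not pass (edgeR adjusted p = 0.0752 and 0.105).

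Of 26 other red cell surface and transport genes, 12 passed as higher, 2 as lower and 12 did not pass, with a median log2 change of 3.13. Smim1, which carries the Vel antigen, stood at 364 ± 117 CPM in CD105+ against 28.8 ± 15.2 in AIA CD200+ cells (log2 change 3.66, SE 0.47, edgeR adjusted p = 0.000361). The widely expressed Cd47 and Bsg rose less, by 1.69 (SE 0.26, edgeR adjusted p = 0.00135) and 1.68 (SE 0.29, edgeR adjusted p = 0.00330) on the log2 scale. Ackr1, the Duffy antigen gene, Tspo2 and Xk had no count in AIA CD200+ cells and were at least 2873-fold, 5637-fold and 777-fold higher in CD105+ cells (edgeR adjusted p = 0.00570, 0.00646 and 0.00666). The genes that fell were Emp3, at 255 ± 99.6 against 519 ± 98.7 CPM, and Bcam, the Lutheran antigen gene, with 0 counts in CD105+ cells against 4.59 ± 5.51 CPM. These 2 were singled out after their values were seen. With spike-in scaling Emp3 turned from -1.03 to 0.27 on the log2 scale, and Bcam, Cd47 and Bsg did not pass (edgeR adjusted p = 0.0763, 0.0646 and 0.0850).

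Relatives of the members that serve outside red cells went the other way or did not pass. Of 18, 11 were tested, and 2 passed as lower and 0 as higher in CD105+ cells, with a median log2 change of -2.71. Sptbn1, the beta spectrin of most other cells, stood at 26.2 ± 12.5 CPM in CD105+ against 309.7 ± 131 in AIA CD200+ cells (log2 change -3.56, SE 0.45, edgeR adjusted p = 0.000342). Ank3 stood at 0.375 ± 0.839 against 58.7 ± 22.1 CPM (log2 change -7.15, SE 1.47, edgeR adjusted p = 0.00824). With spike-in scaling Ank3 still passed, and Sptbn1, at -2.01, did not (edgeR adjusted p = 0.253). Per kilobase of exon, Sptb exceeded Sptbn1 in CD105+ cells (12.2 against 1.5 CPM per kilobase) while Sptbn1 exceeded Sptb in AIA CD200+ cells (17.7 against 0.106). The Kell-related proteases Ece1 and Mme stood at 10.1 ± 6.06 and 0.952 ± 2.01 CPM in CD105+ against 66.5 ± 31.0 and 45.5 ± 55.0 in AIA CD200+ cells, and did not pass (edgeR adjusted p = 0.0557 and 0.0759). Ank2, Slc4a3, Slc4a2 and Icam1, with log2 changes of -3.01 (SE 0.96), -4.13 (SE 1.87), -1.81 (SE 1.23) and -2.45 (SE 1.84), did not pass. Neither did Tgm2, at 1.08 (SE 1.19), nor Icam2 and Btn1a1, which had no count in AIA CD200+ cells. The other 7 were not tested. Of these, the kidney-type Rh genes Rhbg and Rhcg stood at 0.0597 ± 0.134 and 0.118 ± 0.263 CPM in CD105+ cells.

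**Figure D4:**
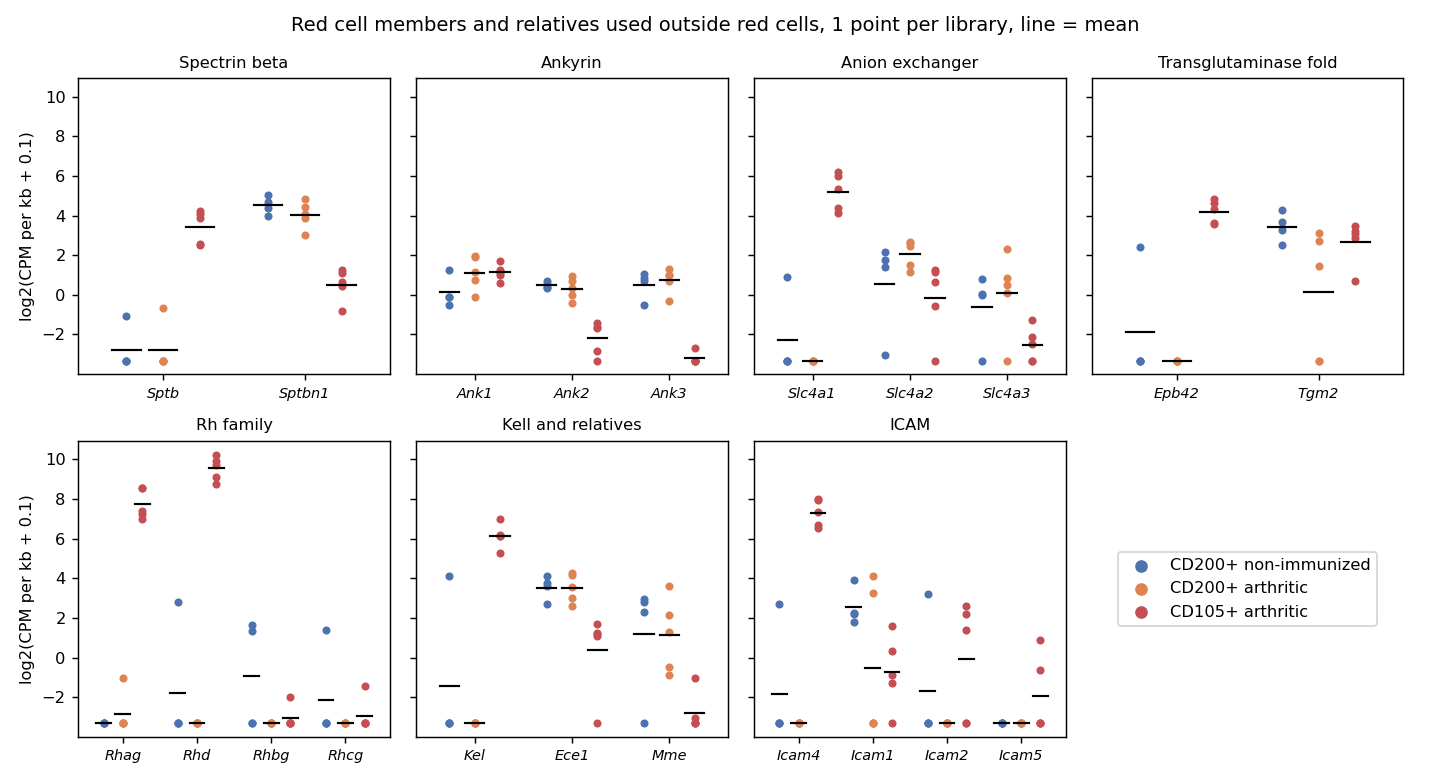
Members and their relatives by protein family, as log2(CPM per kilobase of exon + 0.1) on the vertical axis, with 1 point per library and a line at the mean of the plotted values for each of the 3 groups. Sptb and Sptbn1 change places between CD200+ and CD105+ libraries, while Ank1 overlaps between all groups and Ank2 and Ank3 are low in CD105+ libraries.

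Markers of other cell types were read beside these results. Of 11 erythroid markers tested, 7 passed as higher in CD105+ than in AIA CD200+ cells and 0 as lower, with a median log2 change of 6.74. The erythroid transcription factor genes Gata1 and Gfi1b had 0 counts in all 9 CD200+ libraries, library 1 included, and stood at 302 ± 105 and 292 ± 165 CPM in CD105+ cells (edgeR adjusted p = 0.000105 and 0.000187 against AIA CD200+ cells). Klf1, the erythroid Krueppel-like factor, stood at 963 ± 367 CPM there (edgeR adjusted p = 0.00467). Epor, the erythropoietin receptor gene, Tal1 and Hba-a1 also passed (edgeR adjusted p = 0.0126, 0.0265 and 0.0369). The haemoglobin genes Hba-a2, Hbb-bs and Hbb-bt did not (edgeR adjusted p = 0.0503, 0.0845 and 0.0732). With spike-in scaling Hba-a1 did not pass either (edgeR adjusted p = 0.0561), while Gata1, Gfi1b, Klf1, Epor and Tal1 still passed. The summed erythroid markers ranged from 27086 to 245586 CPM in CD105+, from 4.23 to 10360 in AIA CD200+ and from 1169 to 10164 in NI CD200+ libraries.

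The 10 macrophage markers summed to 2.84 to 5.15 CPM in 4 of the CD105+ libraries and to 1212 CPM in library 11, which had the lowest sum of the 8 members at 2235 CPM. Library 11 was also the highest CD105+ library for the stromal, megakaryocyte, neutrophil, B cell and endothelial sums below. For the erythroid and muscle sums, at 56345 and 89.5 CPM, it was not the highest. Whether these sums go with its member level was not tested. The 11 stromal and osteoblast markers summed to 3046 to 9749.5 CPM in CD105+, 3673 to 15879 in AIA CD200+ and 9485 to 29349.9 in NI CD200+ libraries, and 4 of them passed as lower in CD105+ than in AIA CD200+ cells. The 9 megakaryocyte and platelet markers ranged from 42.2 to 133 CPM in CD105+, 0.0 to 186 in AIA and 17.7 to 169.8 in NI CD200+ libraries, with library 1 highest of the last. The 10 neutrophil and myeloid precursor markers ranged from 0.0 to 1226 CPM in CD105+, 0.0 to 199 in AIA and 4.84 to 7016 in NI CD200+ libraries. The 9 B and plasma cell markers ranged from 2.44 to 100.3, 0.0 to 0.451 and 0.0 to 1615 CPM, and the 8 endothelial ones from 21.1 to 40.4, 0.136 to 135 and 0.186 to 43.7 CPM, in the same order. The 9 skeletal muscle markers, read because muscle also uses forms of Ank1 and Sptb, ranged from 73.8 to 186 CPM in CD105+, 0.604 to 528 in AIA and 32.3 to 182 in NI CD200+ libraries. In CD105+ cells that sum was mostly 1 gene, Mylpf, at 109 ± 49.7 CPM, so it does not describe the list. Library 7, the AIA library with Sptb, was the highest for them at 528 CPM. The part of muscle transcripts in that value was not tested. At 0 throughout CD105+ libraries were 0 of the 11 erythroid, 2 of the 10 macrophage, 2 of the 10 neutrophil, 3 of the 9 megakaryocyte, 0 of the 9 B cell, 1 of the 8 endothelial and 4 of the 9 muscle markers. Against AIA CD200+ cells 1 of 4 megakaryocyte markers tested passed as higher and 1 of 7 muscle markers tested as lower. Of the macrophage, neutrophil, B cell and endothelial markers, 4, 6, 2 and 6 were tested, and no such marker passed in edgeR. The other markers of these lists fell under the filter on low counts.

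The profiles most like the members' were sought among 7378 other genes with a regular symbol and a mean of at least 10 CPM in CD105+ cells. Likeness was the mean absolute difference, over the 14 libraries, of log2(CPM + 1) centred on its mean, between a gene and the mean of the 9 members. The median gene differed by 2.95. The nearest were Asb17os (0.26), Slc25a21, a mitochondrial carrier (0.31), Pdzk1ip1, a small membrane protein (0.32), Ces2g, a carboxylesterase (0.36), Epor (0.37), Tac2, which encodes neurokinin B (0.37), Ikzf1, the Ikaros transcription factor (0.37), Trim10 (0.43), Tspan8, a tetraspanin (0.49), and Cited4 (0.50). Each had 0 counts in all 5 AIA CD200+ libraries. Of the members, Icam4 lay at 0.32 from their mean and Ank1 at 3.05, farther than the median gene.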

How the data were processed

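The 14 libraries hold amplified cDNA of sorted mouse synovial cells, prepared with SMART-Seq v4 and then Nextera XT, per the labels' protocols. Tools named in the submitters' processing notes are HISAT2, StringTie, cutadapt and edgeR, with no version, and both GRCm38 and mm10 appear as builds. Whether reads were counted by strand is not stated there. The deposited table holds whole-number counts per gene: 47821 entries, of which 92 are spike-ins and 47729 genes. A second deposited table of 14322 entries is labelled normalized and filtered but holds the same counts, and served only as another choice of genes. GENCODE M21 gave a symbol for 47224 gene IDs. All columns mapped to a sample. No 2 libraries of a group agreed within sampling noise (lowest chi-square per degree of freedom 91.0).

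The 9 members and all companion lists were chosen with earlier results of these data known. Of 139 listed genes 138 had a row, and Ahsp was not matched. In R 4.3.3 with edgeR 4.0.16, genes passing filterByExpr (minimum count 10; 15015 genes) were fitted in 1 robust quasi-likelihood model over all 14 libraries and 3 groups with TMM scaling. The biological coefficient of variation was 1.28 and the median prior degrees of freedom 2.99. P-values were Benjamini-Hochberg adjusted over all genes tested, with a threshold of 0.05. A standard error is the size of a log2 change over the root of its F value. CPM values are TMM-scaled and relative to gene counts, and levels between genes are per kilobase of merged exons.

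All members are named, with up to 6 genes per companion list by smallest p in CD105+ against AIA CD200+ cells, and the 10 nearest profiles. Other genes were singled out after their values were seen. Some listed genes are not reported here by name. Alternatives were RLE and spike-in scaling, no filter, a strict filter (10 CPM in 4 libraries), no robust shrinkage, a fit to the compared groups alone, DESeq2 1.42.0, limma voom with sample weights (limma 3.58.1), the genes of the second table, no libraries over 80% spike-ins, and leaving out each library in turn.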

Additional observations from a re-analysis of the deposited data

Results flagged for a closer look

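In 10 of 21 member and group pairs checked, 1 library stood far from the others of its group by Dixon's criterion. Chance meets it in about 1 in 20 groups of continuous values, a rate that does not apply to 9 of these 10, where every other library was at 0 and any single library with a count meets it. Levels within a library are not independent of each other, so these are not 10 separate events. NI CD200+ library 1 stood apart for Sptb at 4.51 CPM, Epb42 at 28.5 CPM, Slc4a1 at 8.68 CPM, Rhd at 10.8 CPM, Icam4 at 7.0 CPM and Kel at 48.1 CPM, with the other 3 libraries at 0. NI CD200+ library 3 stood apart for Ank1 at 31.3 CPM. AIA CD200+ library 7 stood apart for Sptb at 6.46 CPM, Rhag at 0.902 CPM and Ermap at 4.21 CPM, with the other 4 at 0. No CD105+ library stood apart for any of the 9 members.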

How the results depend on the processing

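No paired analysis was possible because the replicate numbers run from 1 to 14 over the series and no group shares one. In CD105+ against AIA CD200+ cells 7 or 8 members passed in all 24 alternatives, and the member lost was Sptb each time. In CD105+ against NI CD200+ cells members called went from 4 to 8 with limma voom and from 3 to 8 over fits leaving out 1 library (8 without library 1). In AIA against NI CD200+ cells DESeq2 called 4 members and fits leaving out 1 library 0 to 0. For that pair of groups alone, 8 members fell under the filter.

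Over all genes, 1692 were called in CD105+ against AIA CD200+ cells, against 545 with spike-in scaling, 3565 with DESeq2, 4525 with limma voom, and 1090 to 1794 leaving out 1 library (lowest without library 14). In CD105+ against NI CD200+ cells 1982 were called, against 278, 4102 and 4900 in that order and 1308 to 2394 leaving out 1 library. In AIA against NI CD200+ cells 0 were called (915 at an unadjusted p under 0.05), 303 with DESeq2, 4 with limma voom and 0 to 2 leaving out 1 library. Higher calls were 42.5% of calls in CD105+ against AIA CD200+ cells, 71.6% with spike-in scaling and 52.5% fitting only those groups. Against NI they were 42.2%, 60.1%, 53.8% and, with RLE scaling, 31.9%. Spike-in scaling moved the median of all genes by 1.27 and 1.45 (log2), and RLE by -0.09 and -0.26.

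Skeleton genes called higher numbered 3, against 1 with spike-in scaling, 5 in the 2-group fit, 6 with DESeq2, 7 with limma voom and 2 to 4 leaving out 1 library. Surface genes numbered 12, against 8 with spike-in scaling, 19 with limma voom and 10 to 15 leaving out 1 library. Relatives called lower numbered 2, against 1 with spike-in scaling, 4 with the strict filter, 6 with DESeq2, 7 with limma voom and 2 to 3 leaving out 1 library. Erythroid markers called numbered 7, against 5 with spike-in scaling, 10 with DESeq2, and 4 to 10 leaving out 1 library (4 without library 14).

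Ank1 in CD105+ against AIA CD200+ cells changed sign with spike-in scaling (1.52), limma voom (0.35), no libraries over 80% spike-ins (0.6) and the second table's genes (0.05). It also changed sign over fits leaving out 1 library (-0.32 to 0.14, with 0.14 without library 5 and 0.1 without library 6), and stood at 0.0 with no filter. Sptb in AIA against NI CD200+ cells changed sign with RLE scaling (-0.04) and DESeq2 (-0.1), and ran from -0.22 to 0.55 leaving out 1 library (-0.18 without library 2, -0.22 without library 3 or 4). Ermap there ran from -0.97 to 0.99 (0.99 without library 3). The cause of these changes was not tested. With spike-in scaling the CD105+ level of Rhd was 2507 CPM, of Rhag 1049.5, of Icam4 425, of Ermap 1333, of Kel 502, of Slc4a1 639, of Epb42 267, of Sptb 448 and of Ank1 62.4. Depth limits the absence of a count most in libraries 6, 10, 5 and 2, where 3 counts equal 0.91, 0.666, 0.604 and 0.558 CPM.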
